A study of Rattus norvegicus with 5 samples.

Results

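The comparison described here sets the lung of a normal male Sprague Dawley rat, an animal of intermediate tolerance, over the lung of a susceptible male, both exposed to hypobaric hypoxia. Its members are all rows of the authors' deposited table for that pair, with each gene symbol counted once per locus, which gave 1041 genes of 1821 listed anywhere in the series. The normal male had gasped for the first time 15 to 20 min into an earlier hypoxia exposure, and the susceptible male before 5 min. Both later spent 1 h in a chamber whose pressure was lowered to that at 9144 m. Other libraries used for reference came from a tolerant male with a gasping time above 45 min, a tolerant female with one above 60 min, and a normoxic male that was not screened. The labels name no drug, transgene or age for any of the rats. Each group was 1 library, and the labels do not say that animals were pooled, so the difference in tolerance cannot be told apart from other differences between 2 samples.

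At high altitude the lung meets low oxygen directly. Its small arteries constrict, its endothelium releases vasoactive peptides such as endothelin, and cells under stress switch on immediate-early genes, whose transcripts appear and decay quickly. The lung is also an immune organ: B cells and plasma cells, which rearrange and transcribe immunoglobulin genes, lie around airways and vessels. Tissue from whole lung contains all of these cells, and fewer cells of a type and less RNA per cell cannot be told apart in it.

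The authors' deposited table listed 629 genes as higher in the normal male, 61.0% of those with a single direction, and 402 as lower, 39.0%. Another 10 genes had rows of opposite sign at the same locus, among them Rps2, Crem and Runx1, and were given no direction. Outside the 2 spans of immunoglobulin genes described next, 55.0% were higher and 45.0% lower. Among the 699 named genes with a single direction, 362 or 51.8% were higher and 337 or 48.2% lower, so the excess of higher genes lay mostly among predicted genes, of which 80.4% were higher. The table stops at 2-fold and at a corrected p of 0.05, so genes outside the table have no value and cannot be called unchanged. The smallest fold listed in the authors' deposited table was 2.00 and the highest p was 0.04997, while 147 genes had a p stored as exactly 0. These p-values test the reads of 2 libraries and say nothing of the spread between animals. The tables set by the same authors for pairs with the normal male held 592 to 1041 genes, and those without it 135 to 263. By this measure the normal male library stood apart from the other 4. The tables hold no levels, so the labelled tissue could not be checked against lung markers, and the depth is unknown. Median folds, from the authors' deposited table, were 3.73 for the genes higher in the normal male and 2.75 for the genes lower in it.

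Immunoglobulin genes made up the upper end of the table. On chromosome 4, 71 listed genes lay between 97143739 and 103646051, and on chromosome 6, 67 lay between 138246241 and 143162170, in the coordinates of the authors' deposited tables, whose build is not named. These are the regions of the kappa light chain and the heavy chain: RefSeq annotates 43 of the 71 and 25 of the 67 as immunoglobulin genes, 42 and 24 of them as V segments, the gene pieces from which each B cell assembles its antibody. For 27 of the 71 and 42 of the 67 no RefSeq entry was matched, among them Igha, Ighg and Igh-1a on chromosome 6, which the listed symbols name as immunoglobulin genes. All 138 were higher in the normal male, in a table in which 61.0% of genes were higher. The spans were drawn after their values had been seen, so this is a description and not a test. Median folds derived from the authors' deposited table were 30.3 on chromosome 4, with a range of 6.37 to 1026, and 34.0 on chromosome 6, with a highest finite fold of 290. For LOC691878, in the chromosome 6 span, and LOC100362901, outside both, the authors' deposited table held no finite fold, so these are listed as higher with no size. Of the 225 genes with a fold of at least 10 in either direction, 126 lay in the 2 spans. The lambda constant gene Iglc1, listed under LOC100361706 on chromosome 11, was 12.8-fold higher in the normal male in the authors' deposited table. V segments resemble each other closely, and how the authors assigned reads shared between them is not given, so the fold of any single segment is uncertain and neighbouring members are not independent.

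**Figure D1:**
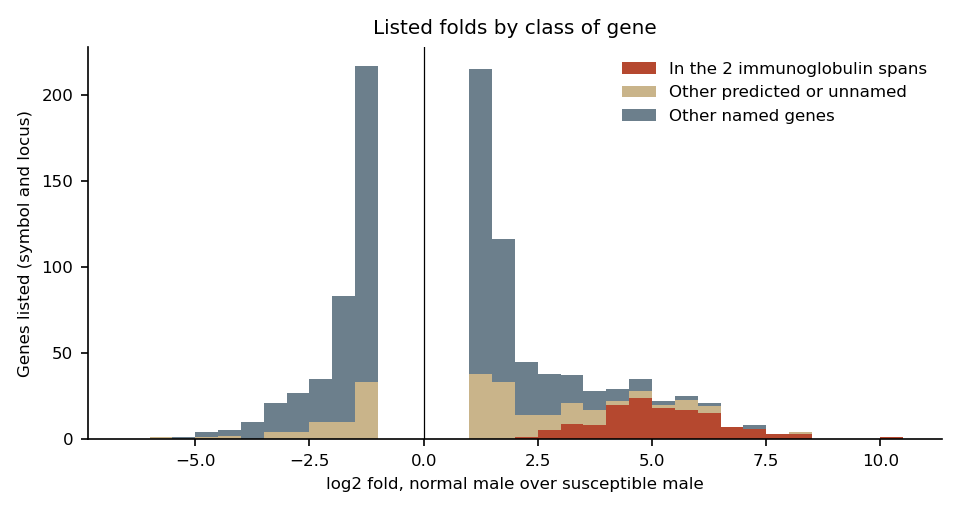
The log2 fold of normal male over susceptible male (x axis) for listed genes, counted in bins of 0.5 and stacked by class (y axis). No listed gene lies within 1 of 0 because of the authors' threshold, and the genes in the immunoglobulin spans occupy the upper end, all on the side of the normal male.

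The normal and the susceptible male lay on opposite sides of the normoxic male for these genes. In the authors' deposited tables against normoxia, 96 of the 138 were listed as higher in the normal male and 0 as lower. In the susceptible male 42 were listed as lower and 0 as higher. Over all 629 higher genes these counts were, in the same order, 291, 3, 84 and 1, so few opposite listings were found anywhere. Folds derived from the authors' deposited tables had a median log2 over normoxia of 2.59 in the normal male (116 genes linked), -1.57 in the tolerant male (110 genes), 0.93 in the tolerant female (105 genes) and -2.70 in the susceptible male (114 genes). Only genes that some table connects to the normoxic library could be placed, which favours genes with a large difference. The genes were listed because the normal and the susceptible male differed, so their place at the 2 ends was partly set by the selection. The authors' deposited tables also listed 71 of the 138 as higher in the tolerant female than in the susceptible male, against 3 as higher in the tolerant male than in the susceptible male; both comparisons share the susceptible library with the one described here.

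**Figure D2:**
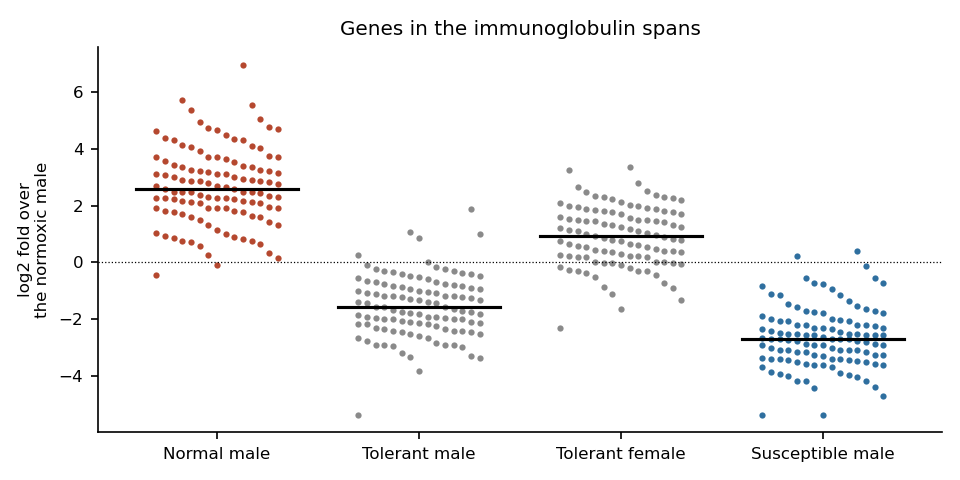
The log2 fold over the normoxic male (y axis) of genes in the immunoglobulin spans, 1 point a gene, in the 4 hypoxic libraries (x axis); bars are medians. The medians run from 2.59 in the normal male to -2.70 in the susceptible male, with the tolerant libraries between them at -1.57 and 0.93. The genes were selected for a difference between the normal and the susceptible male, which partly sets this order.

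Of the genes in the spans, LOC100362515, which RefSeq names Igkcl1, was matched to a RefSeq promoter; RefSeq classes it as an lncRNA. It was 58.9-fold higher in the normal male in the authors' deposited table. Its promoter is printed as the match from the spans, and it holds the octamer ATGCAAAT, the element through which Oct factors and their coactivator Pou2af1 act on immunoglobulin genes. Over 300 bases, 250 before and 50 after the annotated start, 1.78% of the 33469 rat promoters in RefSeq (GRCr8) hold the octamer on either strand, and so does 1 (Vpreb3) of the 7 higher B and plasma cell genes with a matched promoter. In the sequence below (GRCr8, chr4:102616383-102616682, minus strand, 5′ to 3′ along the gene) the octamer, in reverse complement, is in capitals. It spans the annotated start and so does not lie wholly before it, and whether it acts there was not tested.
Igkcl1: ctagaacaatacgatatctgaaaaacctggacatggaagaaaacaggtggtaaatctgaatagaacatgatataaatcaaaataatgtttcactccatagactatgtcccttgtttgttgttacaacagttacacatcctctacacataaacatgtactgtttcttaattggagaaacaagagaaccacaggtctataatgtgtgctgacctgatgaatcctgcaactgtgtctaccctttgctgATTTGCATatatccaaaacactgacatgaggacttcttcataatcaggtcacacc

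B cell and plasma cell genes outside the spans went the same way. Of 30 symbols on the B and plasma cell list, 14 were in the table at 15 loci, and all 15 were higher in the normal male, against 61.0% of all listed genes; Ighg and Igha also lie in the chromosome 6 span. The part of B cell numbers in the immunoglobulin folds was not tested. Their median fold was 7.83, against 3.73 for all genes higher in the normal male, as derived from the authors' deposited table. Tnfrsf13c, the receptor for the B cell survival factor BAFF, was 35.0-fold higher in the normal male in the authors' deposited table. Igj, the chain that joins IgA and IgM into polymers, was listed at 2 neighbouring loci, where the authors' deposited table gave 29.6-fold and 17.8-fold higher. Folds in the authors' deposited table were 21.6 for the constant region Ighg, 9.93 for Igha, 14.0 for the complement receptor Cr2 and 8.26 for the follicle-homing receptor Cxcr5. For the B cell surface antigen Ms4a1 and the antigen receptor subunits Cd79b and Cd79a, the authors' deposited table gave 7.56, 5.78 and 4.98. Of the 11 loci that could be placed against normoxia, 8 were within 2-fold of it in the normal male and 3 above that, while all 11 were more than 2-fold below it in the susceptible male, as read or derived from the authors' deposited tables. The 3 were Ighg, at a derived 5.46 of the normoxic level in the normal male and a listed 0.252 in the susceptible male, and both loci of Igj, at 4.81 and 2.67 in the normal male and 0.163 and 0.150 in the susceptible male, from the authors' deposited tables. Cd79b was at 0.979 of the normoxic level in the normal male, a derived fold, and at 0.169 in the susceptible male, listed in the authors' deposited tables. Ms4a1 was likewise at 0.914 in the normal male and 0.121 in the susceptible male, and Cr2 at 0.767 and 0.0550 in the same order, again from the authors' deposited tables. As listed in those tables, a total of 11 of the 15 were listed below normoxia in the susceptible male and 0 of 15 in either direction in the normal male. Over all 629 higher genes these counts were 84 and 294. Of the genes in the spans, 96 of 138 were listed above normoxia in the normal male, and the difference between the groups of genes was not tested. Among other genes active in B cells, picked after their values were seen, Gpr183 was 18.9-fold, Irf4 11.0-fold, Fcrl1 10.4-fold, Blnk 8.11-fold and Btk 3.75-fold higher in the normal male in the authors' deposited table. So, also picked afterwards, were parts of the secretory machinery that plasma cells use heavily: Derl3 at 5.54-fold, Edem2 at 4.44-fold, Sec11c at 2.76-fold and Serp1 at 2.14-fold in the authors' deposited table, while the disulfide isomerase Pdia5 was 4.33-fold lower. None of the 27 symbols on the heat shock and unfolded protein list was in the table.

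Genes of antigen presentation and the chemokines Cxcl13 and Ccl19 were also higher in the normal male, whereas Cxcl12, another chemokine, was lower. Cxcl13, the chemokine that draws B cells into follicles through Cxcr5, was 77.0-fold higher in the authors' deposited table, at 2.40 times the normoxic level in the normal male and 0.0312 of it in the susceptible male. The tolerant libraries were also below normoxia for Cxcl13, at a derived 0.102 in the male and 0.194 in the female. Ccl19, which guides T cells and dendritic cells, was 13.3-fold higher in the normal male in the authors' deposited table. Its level over normoxia was a derived 0.928 in the normal male, and a listed 0.0696 in the susceptible male and 0.178 in the tolerant male. Glycam1, a mucin of the high endothelial venules through which lymphocytes enter lymph nodes, had the largest fold of any named gene with 1 direction, 172 in the authors' deposited table; it was at 1.77 of the normoxic level in the normal male (derived) and 0.0103 in the susceptible male (listed). Of the cytokine and chemokine list, 5 of 6 listed genes were higher in the normal male, against 61.0% of all listed genes. The exception was Il1a, an alarm cytokine, 5.52-fold lower in the normal male in the authors' deposited table. The row called Ccl22 lies on another chromosome than that gene has in RefSeq and is not counted on here. With it left out, 4 were higher. Of these, Cxcl9 is also on the interferon response list and Cd14 on the macrophage and monocyte list. All 10 listed genes of the rat MHC (RT1) and antigen presentation list were higher in the normal male, against 61.0% of all listed genes, by 2.05-fold to 4.03-fold in the authors' deposited table. They included the class II chains RT1-Bb (3.22-fold), RT1-Da (3.14-fold) and RT1-Ba (2.98-fold), the class II transactivator Ciita (2.92-fold) and the invariant chain Cd74 (2.29-fold), all in the authors' deposited table. Class II is carried by B cells as well as by macrophages and dendritic cells. Of 45 interferon response genes 5 were in the table, all higher, against 61.0% of all listed genes; the largest folds in the authors' deposited table were 44.3 for the ubiquitin-like Ubd and 8.97 for the chemokine Cxcl9, and the smallest was 2.42 for the transcription factor Irf1.

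Markers of other cells moved in both directions, to be read against 61.0% of all listed genes higher and 39.0% lower, and their part in these results was not tested. Macrophage and monocyte markers, 7 of 35 listed, were all higher in the normal male, between 2.09-fold for Apoe and 4.83-fold for the lipid-binding Fabp4 in the authors' deposited table. T and NK cell markers, 5 of 41 listed, were higher in 4, with Zap70, the kinase of the T cell receptor, at 3.98-fold and the exception Prf1, or perforin, 2.27-fold lower in the authors' deposited table. Of 28 neutrophil markers 2 were listed, and granule genes of neutrophils and eosinophils were lower in the normal male: the authors' deposited table gave 7.31-fold for the neutrophil peptide Camp, 7.03-fold for Ngp, and 15.4-fold and 8.95-fold for Epx and Prg2 of eosinophils. The eosinophil, mast cell and basophil list was mixed, for Mcpt2, a mast cell protease, was 6.34-fold and Siglec5 4.75-fold higher in the normal male and Kit 2.27-fold lower in the authors' deposited table. Ngp was at 2.17 of the normoxic level in the normal male (derived) and 15.3 in the susceptible male (listed), from the authors' deposited tables. Among red cell genes, Slc4a1, the anion exchanger band 3, was 16.9-fold lower and Hba-a2, a globin, 4.38-fold lower in the normal male in the authors' deposited table. For these genes the authors' deposited tables placed the normal male below normoxia, at 0.0804 and 0.278 of its level, and the derived level of the susceptible male at 1.36 and 1.22. Myoglobin, Mb, and the atrial light chain Myl7, heart muscle genes also expressed in the muscle sleeve of the pulmonary veins, were 28.1-fold and 3.66-fold higher in the normal male in the authors' deposited table. Both libraries were below normoxia for Mb, at 0.163 in the normal male and 0.00580 in the susceptible male, in the authors' deposited tables.

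**Figure D3:**
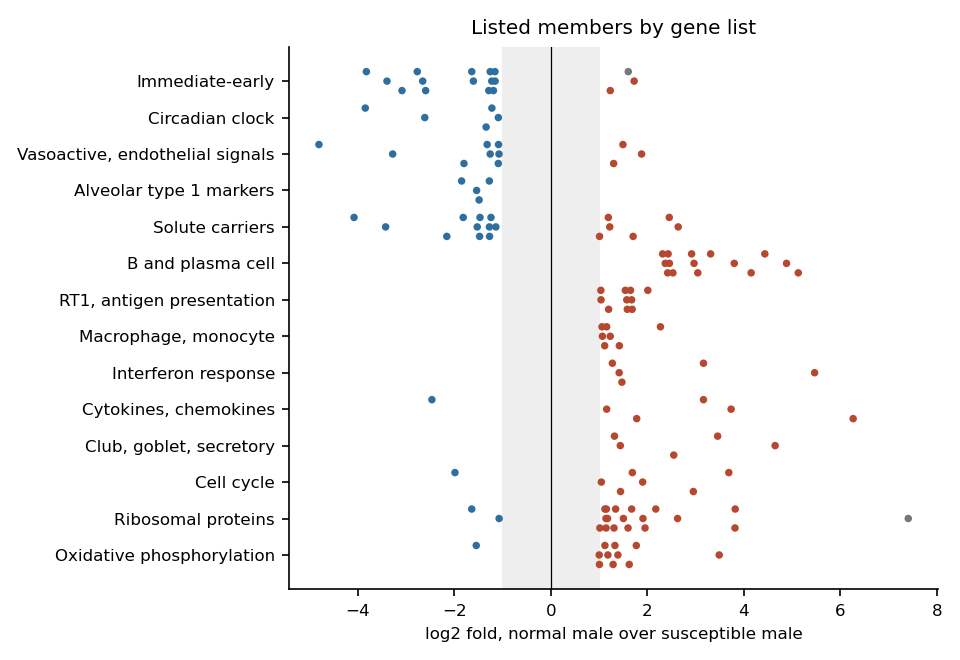
The log2 fold of normal male over susceptible male (x axis) for every listed member with a finite fold of 14 gene lists (y axis), 1 point a gene; red is higher and blue lower in the normal male, grey has rows of both signs, and the shaded band holds no genes because of the authors' threshold of 2-fold. Immediate-early and clock genes lie mostly on the left, and B cell, RT1, ribosomal and respiratory chain genes mostly on the right.

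Immediate-early genes ran the other way. Of 44 symbols on that list 17 were in the table: 14 were lower in the normal male, 2 were higher (Myc and Dusp2) and Crem had rows of both signs. Over all listed genes 39.0% were lower. Fos, the transcription factor that partners Jun in AP-1 (chromosome 6, 109559133 to 109562529), was 14.1-fold lower in the normal male in the authors' deposited table. It was at 0.593 of the normoxic level in the normal male, a derived fold, and at 8.39 in the susceptible male, listed in the authors' deposited tables. The tolerant male and the tolerant female stood between them, listed at 2.42 and 4.31 in the authors' deposited tables. Fos was selected for a difference between the normal and the susceptible male, so this order was partly set by the selection. The orphan nuclear receptors Nr4a1 and Nr4a2 were 10.5-fold and 8.48-fold lower in the normal male in the authors' deposited table. Nr4a1 was at 0.530 of the normoxic level in the normal male (derived) and 5.58 in the susceptible male (listed), from the authors' deposited tables. Among genes that dampen signalling, the authors' deposited table gave 6.81-fold lower for Snf1lk, the kinase now called Sik1, 6.30-fold for the G protein regulator Rgs1 and 6.04-fold for the MAP kinase phosphatase Dusp1. The transcription factors Egr1 and Junb were 3.11-fold and 3.04-fold lower in the normal male in the authors' deposited table. In the authors' deposited tables, a total of 8 of the 14 were listed above normoxia in the susceptible male and 0 were listed in the normal male. Over all 402 lower genes these counts were 38 and 196. Of feedback inhibitors of growth factor signalling, chosen after their values were seen, Spry4 was 11.5-fold, Dusp9 6.37-fold, Dusp8 4.80-fold and Spry1 3.02-fold lower in the normal male in the authors' deposited table; Spry4, however, was low in the normal male, listed at 0.150 of normoxia, and at a derived 1.73 in the susceptible male.

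RefSeq promoters were found for 11 of the 14 lower immediate-early genes, and not for Fos, Csrnp1 and Klf2. The core of the cyclic AMP response element, TGACG on either strand, was present in 9 of the 11 (Btg2, Dusp1, Egr1, Junb, Nr4a1, Nr4a2, Rgs1, Rgs2 and Sik1), while 21.2% of all 33469 promoters hold it. The full palindrome TGACGTCA, which contains the core on both strands, was in 2 of the 11 (Dusp1 and Btg2), against 1.83% of all promoters, and the CArG box of serum response factor was in 1, Egr1, against 1.64%. These are matches of letters in a fixed window and not sites of binding. Immediate-early genes that were not lower were not counted, so these shares cannot be tied to the difference between the 2 males. The promoters of Nr4a1 (chr7:134259888-134260187, plus strand), Dusp1 (chr10:17184603-17184902, plus strand) and Egr1 (chr18:26736828-26737127, plus strand), all in GRCr8 from RefSeq, show the arrangement: 4 cores in Nr4a1, 3 in Dusp1, of which 2 overlap in the palindrome, and 2 in Egr1. Cores are in capitals, and each sequence runs 5′ to 3′ along the gene.
Nr4a1: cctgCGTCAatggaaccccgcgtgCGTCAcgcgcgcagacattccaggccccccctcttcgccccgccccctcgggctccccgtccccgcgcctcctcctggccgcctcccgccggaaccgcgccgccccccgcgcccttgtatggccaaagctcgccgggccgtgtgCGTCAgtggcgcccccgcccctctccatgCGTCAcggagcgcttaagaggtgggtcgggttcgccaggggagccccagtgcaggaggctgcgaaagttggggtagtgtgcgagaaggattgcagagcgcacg
Dusp1: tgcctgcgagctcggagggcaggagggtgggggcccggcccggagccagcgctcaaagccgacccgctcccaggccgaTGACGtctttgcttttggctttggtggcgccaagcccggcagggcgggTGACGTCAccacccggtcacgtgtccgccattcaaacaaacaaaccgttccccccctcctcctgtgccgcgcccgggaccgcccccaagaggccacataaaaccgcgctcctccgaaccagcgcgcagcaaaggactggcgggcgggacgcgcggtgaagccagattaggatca
Egr1: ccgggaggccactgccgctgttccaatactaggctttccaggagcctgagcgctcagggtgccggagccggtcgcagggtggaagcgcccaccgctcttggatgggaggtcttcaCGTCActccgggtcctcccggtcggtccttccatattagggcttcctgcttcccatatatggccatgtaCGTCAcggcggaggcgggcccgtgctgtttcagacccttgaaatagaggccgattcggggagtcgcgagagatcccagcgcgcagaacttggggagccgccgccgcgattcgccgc

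Of 19 clock genes 5 were in the table, all lower in the normal male, against 39.0% of all listed genes and 48.2% of named ones. Bhlhe40, a repressor of the clock that also responds to hypoxia, was 14.4-fold lower, Per3 6.11-fold, Per1 2.53-fold, the PAR factor Tef 2.33-fold and the repressor Cry2 2.12-fold in the authors' deposited table. For Per3 both libraries lay below normoxia in the authors' deposited tables, at 0.0514 in the normal male and 0.314 in the susceptible male. For Bhlhe40 the normal male was at a derived 0.348 and the susceptible male at a listed 5.00 times the normoxic level, from the authors' deposited tables. The time of day of sampling is not in the labels. Pck1, which encodes the key enzyme of gluconeogenesis, was the named gene furthest below, 43.5-fold lower in the normal male in the authors' deposited table; it was at a derived 0.563 of normoxia in the normal male and a listed 24.5 in the susceptible male. Cdkn1a, the cell cycle inhibitor p21, was 3.96-fold lower in the normal male, yet both libraries were above normoxia in the authors' deposited tables, at 4.30 in the normal male and 17.0 in the susceptible male. Proliferation genes were mostly higher in the normal male, 6 of 7 on the cell cycle list against 61.0% of all listed genes, led in the authors' deposited table by Plk1, a mitotic kinase, at 12.9-fold and Rrm2, a subunit of ribonucleotide reductase, at 7.75-fold. Of these, Mcm5, Mcm3 and Top2a were listed below normoxia in the susceptible male, at 0.195, 0.305 and 0.205, against derived levels of 0.731, 0.984 and 0.558 in the normal male, from the authors' deposited tables.

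Vasoactive and endothelial genes were lower in the normal male in 8 of 11 cases. Over all listed genes 39.0% were lower, and over named ones 48.2%. Of the 3 higher rows, 1, Adora2a, lies on another chromosome than that gene has in RefSeq. Lists share members, so their counts are not separate: Klf2 is also an immediate-early gene here, and Edn1 and Apln are also on the hypoxia-inducible factor list. Edn1, the vasoconstrictor endothelin-1, was 9.69-fold lower in the authors' deposited table, and the libraries lay on opposite sides of normoxia, listed at 0.401 in the normal male and 3.88 in the susceptible male. Angpt2, a ligand that destabilises vessels by opposing Tie2 signalling, was 28.0-fold lower in the normal male in the authors' deposited table. Here it was the normal male that stood apart, listed at 0.0238 of normoxia, against a derived 0.667 in the susceptible male, from the authors' deposited tables. Its derived level was 0.784 in the tolerant male and 0.780 in the tolerant female, from the same authors' deposited tables. Apelin, Apln, a vasodilator peptide induced by hypoxia, went the other way, 2.47-fold higher in the normal male in the authors' deposited table, as did Ramp3, an adrenomedullin co-receptor, at 3.68-fold; the partner co-receptor Ramp2 was 2.12-fold lower. Apold1, an early response gene of endothelium, was above normoxia in both libraries, at 6.07 in the normal male and 21.1 in the susceptible male in the authors' deposited tables. Of the endothelial markers, Erg, Car4, Plvap, Ramp2 and Sox17 were lower by 2.06-fold to 2.81-fold in the normal male in the authors' deposited table, while Glycam1 and Cd300lg, of venules and capillaries, were higher. Other vessel and lung development genes picked after their values were seen were Tmem100 (6.95-fold), Pdgfb (4.60-fold), Cxcl12 (4.59-fold), Hes1 (3.62-fold) and Jag2 (2.46-fold), lower in the normal male in the authors' deposited table, and also Foxa2 (2.94-fold) and Tbx5 (2.83-fold). Of 16 alveolar type 1 markers 4 were in the table, all lower, against 39.0% of all listed genes, from 2.42-fold for Col4a3 to 3.60-fold for Akap5 in the authors' deposited table; the loci of Col4a3 and its neighbour Col4a4 overlap, so their folds may share reads. The hypoxia-inducible factor list was split, 4 higher and 3 lower: Eno1, Apln, Ndrg1 and Hk2 were higher by 2.04-fold to 2.80-fold in the authors' deposited table. Lower in the normal male were Edn1 (9.69-fold), Pfkfb3 (2.97-fold), an activator of glycolysis, and Epas1 (2.16-fold), which encodes HIF-2 alpha, in the authors' deposited table; Pfkfb3 was at a derived 0.954 of normoxia in the normal male and a listed 2.84 in the susceptible male. Solute carriers were lower in 11 of 17 cases, against 48.2% of named genes. No gene of the heat shock and unfolded protein, coagulation, skeletal muscle or sex-linked lists was in the table, and 0 genes of the mitochondrial genome were.

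**Figure D4:**
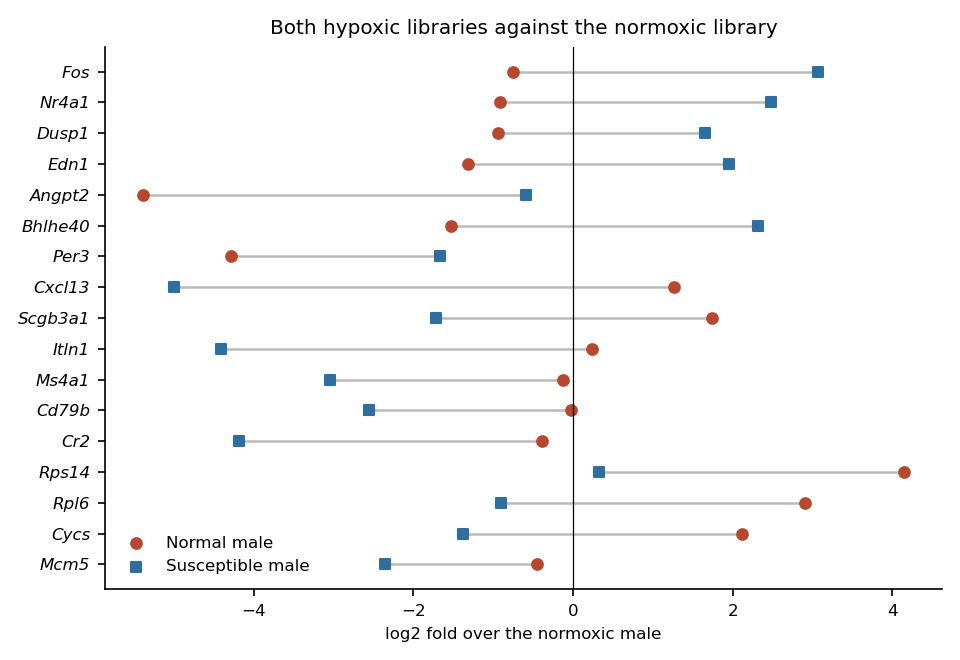
The log2 fold over the normoxic male (x axis) of 17 named genes (y axis) in the normal male (red circles) and the susceptible male (blue squares), listed or derived from the authors' deposited tables; the line at 0 is the normoxic male. For Fos, Nr4a1 and Cxcl13 the susceptible male lies further from 0 than the normal male, and for Angpt2, Rps14 and Rpl6 the normal male does.

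Of 40 secretory airway genes 5 were in the table, all higher in the normal male, against 61.0% of all listed genes. Itln1, the lectin intelectin of goblet cells, was 25.1-fold higher and Scgb3a1, a secretoglobin of the airway epithelium, 11.0-fold higher in the authors' deposited table. Scgb3a1 was listed on opposite sides of normoxia, at 3.34 in the normal male and 0.304 in the susceptible male in the authors' deposited tables. Plunc and Scgb3a2 were 5.85-fold and 2.50-fold higher in the normal male in the authors' deposited table. In addition, Slpi, an airway protease inhibitor, picked after its value was seen, was 8.85-fold higher in the authors' deposited table.

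Members of the ribosomal protein list were higher in the normal male in 17 of 19 cases with 1 direction, and respiratory chain genes in 10 of 11, against 61.0% of all listed genes. The 17 include Rpl6-ps1, a pseudogene by its symbol, 6.18-fold higher in the authors' deposited table. With symbols on another chromosome than in RefSeq left out, 16 ribosomal members were higher. Medians over the listed members of these 2 lists, both directions counted, were 1.34 and 1.29 on the log2 scale, as derived from the authors' deposited table. Over all listed genes of both directions the median was 1.21, and over the genes higher in the normal male alone it was 1.90. Rps14 and Rpl6, at 14.1-fold each, and Cycs, or cytochrome c, at 11.2-fold, were far above the others in the authors' deposited table. Rps14 was at 17.7 times the normoxic level in the normal male (listed) and 1.25 in the susceptible male (derived), from the authors' deposited tables. In the same tables, a total of 10 of the 17 were listed above normoxia in the normal male and 0 in the susceptible male. Over all 629 higher genes these counts were 291 and 1, so the ribosomal list was not set apart by them. The exceptions, lower in the normal male, were Rps19 (3.11-fold) and Rpl41 (2.10-fold) on the ribosomal list and Ndufv3 (2.92-fold) on the respiratory chain list in the authors' deposited table. Ribosomal genes and Cycs have many processed pseudogenes, and how the authors divided shared reads is not given, so these folds are uncertain.

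Genes higher in the normal male covered less of the genome than genes lower in it. The median listed locus was 5582 bases long for the 629 higher genes and 25549 bases for the 402 lower genes, a ratio of 0.218, from the authors' deposited table. Outside the immunoglobulin spans the medians were 9574 and 25549 bases, and for named genes alone 11894.5 and 27352 bases, in the same order of higher and lower genes. Whether fragment length, RNA quality or read counting differed between the libraries cannot be read from the authors' deposited tables, and the part of locus length in the results above was not tested.

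**Figure D5:**
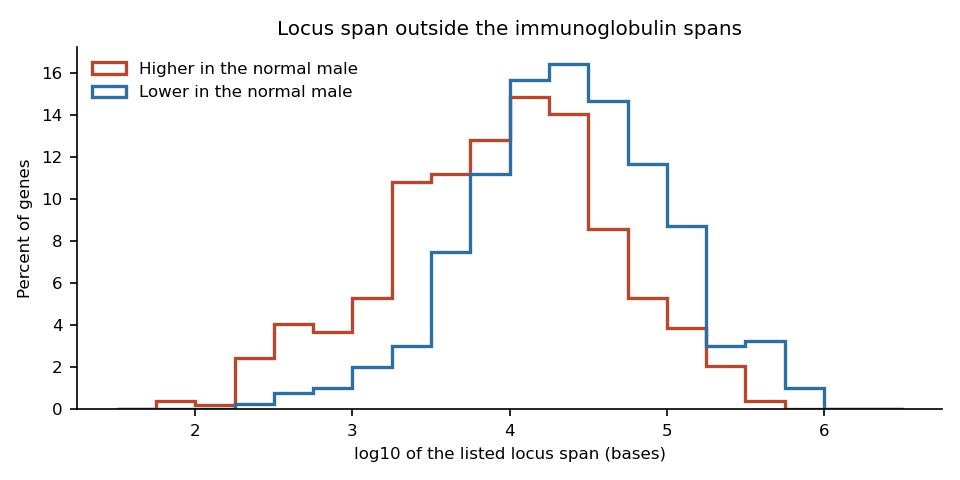
The log10 of the listed locus span in bases (x axis) for genes outside the immunoglobulin spans, as percent of the genes higher (red) and lower (blue) in the normal male (y axis). The distribution of the higher genes, with a median of 9574 bases, lies left of that of the lower genes, with a median of 25549 bases.

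Other lists had few members in the table, where 61.0% of all genes were higher and 39.0% lower. Genes of oxidative stress and xenobiotic defence were higher in the normal male in 6 of 8 cases, a share near the 61.0% of all listed genes, between 2.07-fold for Inmt and 2.39-fold for the peroxiredoxin Prdx1 in the authors' deposited table; the exceptions were Cyp1a1, 2.96-fold lower, and Fmo2, 2.84-fold lower. Glucocorticoid response genes were divided, 3 higher and 3 lower, with the chaperone partner Fkbp5 2.90-fold and the metallothionein Mt1a 2.85-fold higher in the normal male in the authors' deposited table. The ubiquitin and proteasome list had 5 higher and 1 lower, and the authors' deposited table gave 7.09-fold for the proteasome activator Psme2. The lower row, under the symbol Usp6nl, lies on another chromosome than that gene has in RefSeq. Regulators of small GTPases and the cytoskeleton were higher in 3 and lower in 5, with the mitotic kinesin Kif2c 13.8-fold higher and the endothelial exchange factor Arhgef15 8.47-fold lower in the authors' deposited table. Basement membrane genes Lamb1, Nid1 and Lama2, the listed members of the collagen and matrix list, were lower by 2.02-fold to 2.67-fold in the authors' deposited table. Smooth muscle, pericyte and fibroblast markers were higher in 3 and lower in 2, and adipocyte, mesothelial and neural markers higher in 2 and lower in 1. The histone and chromatin lists each had 1 member, both lower, and the ciliated cell and alveolar type 2 lists each had 1, both higher, though the ciliated one, Spag6, lies on another chromosome than that gene has in RefSeq; the alveolar type 2 member was Scd1, a lipid desaturase, at 2.86-fold in the authors' deposited table.

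Some genes set the normal male apart from every other library. Listed at the same locus and in the same direction in all 4 tables that include it, 177 were higher in the normal male, 64 of them in the immunoglobulin spans, and 67 were lower. Over the susceptible male alone 629 genes were higher, 138 of them in the spans, and 402 were lower. In 1 or more of the tables, 3 of the 177, Hs1bp3 among them, and 5 of the 67, Elf2 and Tmem100 among them, also had an overlapping row of the opposite sign and are uncertain. These comparisons share the normal male library, so a property of that library would enter all of them. C1qtnf5, a secreted C1q-like protein, was 76.8-fold higher than in the susceptible male and 24.8-fold higher than in the normoxic male in the authors' deposited tables. The signalling adaptor Traf4 was 30.3-fold higher than in the susceptible male and 34.3-fold higher than in the normoxic male in the authors' deposited tables. Over the susceptible male, Zscan12 was 51.1-fold higher in the authors' deposited table. Of genes lower in the normal male in all 4, Tox3 was 14.8-fold, Prrg3 13.8-fold and Trps1 9.07-fold lower than in the susceptible male in the authors' deposited table. For Tox3, Prrg3 and Trps1 the derived level of the susceptible male was 1.33, 0.956 and 0.826 of normoxia, from the authors' deposited tables.

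Over the whole table the 2 libraries contributed unequally, and the authors' deposited tables against normoxia held 873 genes for the normal male and 258 for the susceptible male. Of the 629 genes higher in the normal male, the authors' deposited tables listed 294 in the normal male against normoxia, 291 of them above it, and 85 in the susceptible male, 84 of them below it. Of the 402 lower genes, 196 were listed in the normal male, 193 of them below normoxia, and 40 in the susceptible male, 38 of them above it. The immediate-early and B cell lists departed from this, with 0 of 14 and 0 of 15 listed in the normal male, against 8 of 14 and 11 of 15 in the susceptible male. So did some smaller lists. Higher cell cycle genes had 0 of 6 against 3 of 6, lower neutrophil genes 0 of 2 against 2 of 2, and higher interferon genes 1 of 5 against 3 of 5. A gene that was not listed was not shown to be unchanged. On the B cell list, Ighg and both loci of Igj were at derived levels of 5.46, 4.81 and 2.67 of normoxia in the normal male. Listing was counted only where symbol, start and end matched exactly and stood in a single row. These counts rest on 3 tables that share libraries in pairs, and no test of the difference between lists was made.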

How the data were processed

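Per the labels, lung RNA from 5 rats (1 library per group) was sequenced on an Illumina Genome Analyzer IIx. The authors deposited 11 tables of listed genes, of which 2 are identical copies, leaving 9. Values in them are a proportional fold change, a signed ratio of proportions used here as a score, and an FDR-corrected p-value, both made by the authors, per the file headers. The genome build, aligner, counting method and test were not given in the sources used here. Without counts the depth is unknown, and no interval could be given.

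Rows were merged by symbol and overlapping locus (Python 3.11.15, pandas 2.3.3, numpy 2.4.6). Folds were turned into log2 values, and a fold that no table lists was derived by adding log2 folds along other tables; 171 of 171 closed loops agreed within 0.001. The joining was tested on simulated data. Predicted genes are those under LOC, RGD, MGC or id symbols, blanks or dates. Names, biotypes and promoters came from RefSeq (GRCr8); 679 of 708 named members lay on the RefSeq chromosome of their symbol, 19 on another and 10 were not found. Named genes were the 15 largest finite folds per direction, up to 6 members per list and direction, up to 12 per direction listed in all tables with the normal male, and genes said to be picked afterwards. Members and the 37 lists were chosen with earlier results of these data known. With 1 library per group no test between conditions was possible, and the alternatives are thresholds and ways of counting.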

Additional observations from a re-analysis of the deposited data

Results flagged for a closer look

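Against the normoxic library, a few members were listed in opposite directions in the normal and the susceptible male; with 1 library each, the differences between them were not tested. Cxcl13 was 77.0-fold higher in the normal than in the susceptible male, listed at 2.40 of normoxia in the normal male and 0.0312 in the susceptible male in the authors' deposited tables. Its derived level was also below normoxia in the tolerant male, at 0.102, and in the tolerant female, at 0.194. Scgb3a1 was 11.0-fold higher in the normal male, listed at 3.34 and 0.304 of normoxia in that order in the authors' deposited tables. Edn1 was 9.69-fold lower in the normal male, listed at 0.401 in the normal male and 3.88 in the susceptible male in the authors' deposited tables. In the immunoglobulin spans, 24 of 138 members were listed above normoxia in the normal male and below it in the susceptible male. Of 28 such members in the table, 4 were among the 903 genes outside the spans: Cxcl13, Scgb3a1, Edn1 and LOC500194. LOC500194 was 48.7-fold higher in the normal male, listed at 6.41 of normoxia there and 0.132 in the susceptible male. It starts at 103727436 on chromosome 4, past the drawn end of the immunoglobulin span at 103646051.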

How the results depend on the processing

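No paired analysis was possible because each group is 1 library, and no library could be left out. Counting 1 gene per symbol or per deposited row moved no count by over 1.5 times. Nor did leaving out folds that are not finite or symbols on another chromosome. A reversal was looked for in the locus length ratio alone, and the higher genes kept the shorter median locus throughout. Each list was followed only in the direction that most of its members took. Leaving out predicted and unnamed genes gave 362 genes higher in the normal male, 51.8% of those with 1 direction against 61.0% with all genes, and a locus length ratio of 0.435. A minimum fold of 4 gave 300 higher and 102 lower, with 74.6% higher, and a locus length ratio of 0.0518. Leaving out the immunoglobulin spans, an alternative chosen after seeing the data, gave a ratio of 0.375. With the minimum of 4, 6 immediate-early, 2 clock, 2 vasoactive, 3 solute carrier, 1 glucocorticoid, 1 small GTPase and 0 endothelial genes stayed lower. On the higher side it left 4 ribosomal, 1 respiratory chain, 1 RT1, 2 cell cycle, 2 interferon, 3 cytokine, 3 secretory, 1 macrophage, 1 T and NK cell, 1 proteasome, 0 hypoxia-inducible factor, 0 oxidative stress and 0 smooth muscle genes. A maximum p of 0.01 left 3 clock and 3 small GTPase genes lower, and 5 respiratory chain, 3 proteasome and 3 secretory genes higher. These falls follow from fewer genes passing the limit. With the minimum fold of 4 the main direction of some lists was lost. The endothelial list then kept only higher genes, Glycam1 (172-fold) and Cd300lg (17.6-fold). The hypoxia-inducible factor list kept only a lower gene, Edn1 (9.69-fold). Depth is unknown, and a gene that is not listed has no value.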
